A study of Mus musculus with 26 samples.

Results

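Translational efficiency, the number of ribosome footprints on a gene's mRNA relative to the amount of that mRNA, was compared gene by gene between NIH3T3 cells after 7 h of osmotic stress by KCl and unstressed cells. NIH3T3 is an established line of mouse embryonic fibroblasts. Ribosome profiling sequences the short mRNA fragments that a ribosome protects from digestion, and the RNA libraries held polyA-selected RNA of the same conditions. The comparison set 8 of the 26 libraries of the series against each other, with 2 footprint and 2 RNA libraries in each of the 2 groups. The filter and the estimate of the spread came from all 20 libraries of the H2O2 and KCl experiment. A gene entered when its counts were high enough in both kinds of library, which left 10457 genes. The unstressed group also served as the control for H2O2, and the libraries of 2 h of KCl and of 7 h of H2O2, with 2 footprint and 2 RNA libraries each, were used to show where the KCl response at 7 h differed. The 2 footprint and 2 RNA libraries of 2 h of H2O2 were in the fit too, but no efficiency change is given for them. No genetic change is named for any group, and no source used here states the KCl and H2O2 concentrations. The title of the series asks how transcription that fails to stop under stress runs into neighbouring genes. Nothing in the labels says that the 2 libraries of a group came from separate cultures, so the p-values measure only the spread between these libraries.

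A rise of salt outside the cell draws water out, and cells first shrink and then take up or make small organic solutes. The transcription factor NFAT5 drives that second phase through the aldose reductase gene Akr1b3 and the transporters Slc5a3 (myo-inositol), Slc6a6 (taurine) and Slc6a12 (betaine), while Slc38a2 imports neutral amino acids. Stress can also change which mRNAs ribosomes use: phosphorylation of eIF2 lowers initiation in general and favours messages such as Atf4, and low mTOR activity lowers translation of messages that start with a terminal oligopyrimidine (TOP) tract, among them those of the ribosomal proteins. A gene's efficiency falls when its RNA rises and its footprints do not follow, and also when its footprints drop while its RNA stays.

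Changes in efficiency are given as the log2 change of footprints minus the log2 change of RNA, KCl 7 h against control, followed by the fitted standard error, and levels as counts per 1000000 (CPM) after scaling within each kind of library. Because of that scaling the values are relative to the other genes, and a rise or fall of translation as a whole cannot be seen in them. The 4 footprint libraries held 2884344 to 3925402 counts and the 4 RNA libraries 24441877 to 45244430. The log2(CPM + 1) values of replicates correlated across genes at r = 0.975 and 0.979 for footprints and at 0.998 in both RNA groups (genes are not independent replicates). Of 11 fibroblast markers 8 exceeded 10 TPM in all 4 RNA libraries, with Fap and Lum below 1 TPM in each. Of 16 markers of other cell types 13 stayed below 1 TPM, 5 of them at 0, and their summed level was 13.5 to 16.3 TPM in these libraries.

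After 7 h of KCl more genes lost translational efficiency than gained it, and the losses were the larger ones. The efficiency of 578 of the 10457 genes changed (5.53%), with 180 higher (1.72%) and 398 lower (3.81%), by edgeR's quasi-likelihood test with p-values adjusted after Benjamini and Hochberg and a threshold of 0.05. A stricter second test, limma voom in which footprint libraries and RNA libraries carried their own weights, was passed as well by 218 of these genes (2.08%), of which 66 were higher (0.631%) and 152 lower (1.45%). The median change of the 152 genes was -1.30 and that of the 66 genes 1.02, against 0.01 over all genes tested. With only the 8 compared libraries in the fit, the 578 edgeR calls became 417, of 9832 genes tested. On simulated counts the 2 tests together found 25.4% of 2-fold and 84.6% of 4-fold changes, so many changes of moderate size would be missed. Of the simulated calls 7.5% were false, a share that depends on the 198 changes put in and may differ among the real calls. The count fell to 252 without the second KCl footprint library and to between 231 and 307 without any 1 of the 4 RNA libraries, and rose to 1072 with DESeq2.

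Most of the lower genes had more RNA under KCl and no matching rise in footprints. RNA changed at 9128 of 13199 genes (69.2%), with 4932 higher (37.4%) and 4196 lower (31.8%), and footprints changed at 2196 of 10516 genes (20.9%), with 1133 higher (10.8%) and 1063 lower (10.1%). Among the 152 genes that lost efficiency by both tests, 106 had risen in RNA. The footprints of 69 of those passed no test, those of 30 fell and those of 7 rose. A further 20 genes fell in footprints with no RNA change that passed the test, and 26 fell in both. The 66 genes that gained efficiency divided differently: 34 had fallen in RNA, of which 28 showed no footprint change past the threshold, 5 rose and 1 fell in footprints, 18 had no RNA change past it, of which 17 rose in footprints, and 14 rose in both. These divisions follow in part from the definition of efficiency as a difference, and RNA, with its deeper libraries, passed its own test far more often than footprints did.

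**Figure D1:**
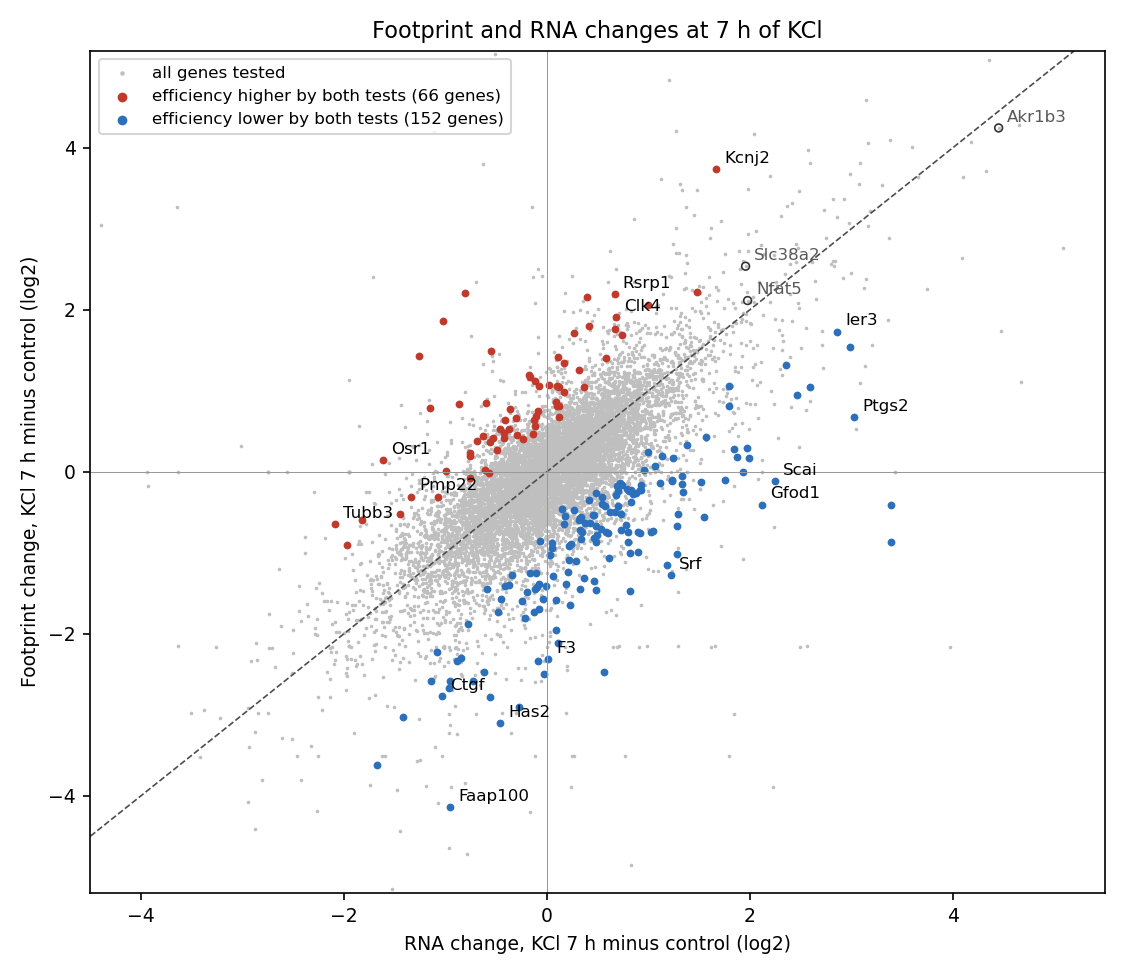
Change in footprints (vertical axis, log2, KCl 7 h against control) plotted against change in RNA (horizontal axis, log2) for the genes tested, each point 1 gene; genes that changed in efficiency by both tests are coloured by direction, and 15 genes lie outside the axes. The dashed diagonal marks equal change in both. The 152 lower genes spread below it, 106 of them with higher RNA, and the 66 higher genes lie above it, while Akr1b3, Slc38a2 and Nfat5 (open circles) lie far up along it.

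The gene of cyclooxygenase-2, Ptgs2, which makes the precursor of prostaglandins, was a clear case of RNA that outran its footprints. Its RNA stood at 129 and 137 CPM in the control libraries and at 1111 and 1060.4 CPM under KCl, while its footprints stood at 1366 and 1400.4 CPM in the control and at 2134 and 2285 CPM under KCl. Both measures were higher in each KCl library than in either control library, RNA by much more than footprints, and efficiency changed by -2.32 ± 0.28 (adjusted p = 1.85e-04). Ier3, an immediate early gene that restrains cell death, followed the same course with a larger footprint response. Its RNA went from 38.4 and 39.9 to 297 and 270.4 CPM and its footprints from 127 and 134 to 491 and 376 CPM, with no overlap of the groups in either, and efficiency changed by -1.09 ± 0.19 (adjusted p = 0.00297). Gfod1, which encodes a protein with an oxidoreductase domain, had 67.5 and 73.1 CPM of RNA in the control and 284 and 327 CPM under KCl. Its footprints, at 21 and 25.8 CPM in the control and 21.8 and 13.9 CPM under KCl, overlapped between the groups, and its efficiency fell by 2.50 ± 0.25 (adjusted p = 2.17e-05).

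The serum response factor gene, Srf, moved in opposite directions at the 2 levels. RNA rose from 55.8 and 61 CPM to 133 and 139 CPM, and footprints fell from 42.1 and 39.8 CPM to 17.3 and 16.5 CPM. No control and KCl library overlapped in either measure, and efficiency changed by -2.47 ± 0.22 (adjusted p = 7.81e-06), a value that stayed between -2.53 and -2.40 when any 1 of the 8 libraries was left out. Scai, whose product represses the SRF coactivators of the MRTF family, had RNA of 19.8 and 19.1 CPM in the control and 89.4 and 95.5 CPM under KCl and overlapping footprints of 13.4 and 9.62 CPM and 10.9 and 10.5 CPM, a change in efficiency of -2.34 ± 0.36. Other genes with more RNA and lower footprint levels were Mast4, a kinase gene (-1.80 ± 0.21), Pigm, a mannosyltransferase of GPI anchor synthesis (-1.86 ± 0.23), Socs5, a suppressor of cytokine signalling (-1.62 ± 0.16), and Mfhas1 (-2.31 ± 0.34). Sgk1, a kinase gene known to respond to cell volume, went in RNA from 339 and 331 to 674 and 599 CPM while footprints went from 719 and 723 to 561 and 674 CPM, and its efficiency changed by -1.11 ± 0.20 (adjusted p = 0.00375).

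A second set of genes lost footprints while RNA hardly moved. F3 encodes tissue factor, the cell-surface protein that starts blood coagulation. Its RNA was 42.9 and 39.4 CPM in the control and 42.1 and 41.1 CPM under KCl, with the groups overlapping, while its footprints dropped from 315 and 247 CPM to 60.5 and 53.1 CPM, so that efficiency changed by -2.29 ± 0.32 (adjusted p = 6.45e-04). The gene of the orphan nuclear receptor Nr4a1 also had overlapping RNA, 27 and 29.3 CPM against 25.4 and 30.1 CPM. Its footprints stood at 48.4 and 89 CPM in the control and at 11.3 and 12.8 CPM under KCl, every KCl library below both controls, a change in efficiency of -2.44 ± 0.35 (adjusted p = 6.72e-04). Csf1, the macrophage colony-stimulating factor gene, had RNA of 248 and 247 CPM and 229.7 and 227 CPM. Its footprints fell from 579.7 and 586 CPM to 226 and 203 CPM and its efficiency by 1.30 ± 0.18 (adjusted p = 6.33e-04).

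The smallest p of all genes belonged to Ivns1abp, a kelch-repeat protein gene first known from its binding to an influenza protein. Its footprints were 101 and 93.1 CPM in the control and 20.7 and 24.1 CPM under KCl, against RNA of 123 and 126 CPM and 137 and 131 CPM, and its efficiency changed by -2.19 ± 0.17 (adjusted p = 2.89e-06). Arhgef11, an exchange factor for the GTPase RhoA, behaved alike, with footprints of 22.2 and 22.3 CPM and then 4.51 and 4.26 CPM and an efficiency change of -2.23 ± 0.22. In both genes the KCl footprint libraries lay far below the controls, and leaving out any 1 library moved neither value by more than the standard error. Micall1, a gene of endocytic recycling, changed by -2.61 ± 0.37, and the hyaluronan synthase gene Has2 by -2.66 ± 0.50, both with an RNA fall that was far smaller than the footprint fall. The call of Has2 was lost without the second KCl footprint library, at -2.12. The same library decided the calls of the EGF receptor ligand gene Areg, -3.03 with all libraries and -2.90 without it, and of the ERK phosphatase gene Dusp6, -2.27 and -2.11.

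In another set both measures fell, footprints more than RNA. Ctgf (connective tissue growth factor, a matrix-associated signalling protein) had footprints of 1756 and 1650.4 CPM in the control and 311 and 190.4 CPM under KCl. Its RNA went from 61.6 and 72.4 to 33.7 and 31.7 CPM, the groups overlapped in neither measure, and efficiency changed by -1.70 ± 0.24 (adjusted p = 6.45e-04). Footprints of Pdgfb, the B chain of platelet-derived growth factor, almost disappeared: 138 were counted in the 2 control libraries and 1 in the 2 KCl libraries. That is a 110.4-fold lower level after scaling, with a 95% exact counting interval of 19.5-fold to 4392-fold that covers counting error only, against RNA of 16 and 14.8 CPM and 4.29 and 3.71 CPM. The fitted efficiency change, -4.75 ± 1.13 (adjusted p = 0.0189), depends on how the fit treats such low counts. It was lost without either KCl footprint library, at -3.96 without the first and -9.36 without the second. Lif, the leukaemia inhibitory factor gene, had 199 and 110 footprint counts in the control libraries and 6 and 3 under KCl, and its efficiency fell by edgeR (-3.93 ± 0.73, adjusted p = 0.00419) but not by the stricter test (adjusted p = 0.0726) nor without the second KCl footprint library (-3.31).

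**Figure D2:**
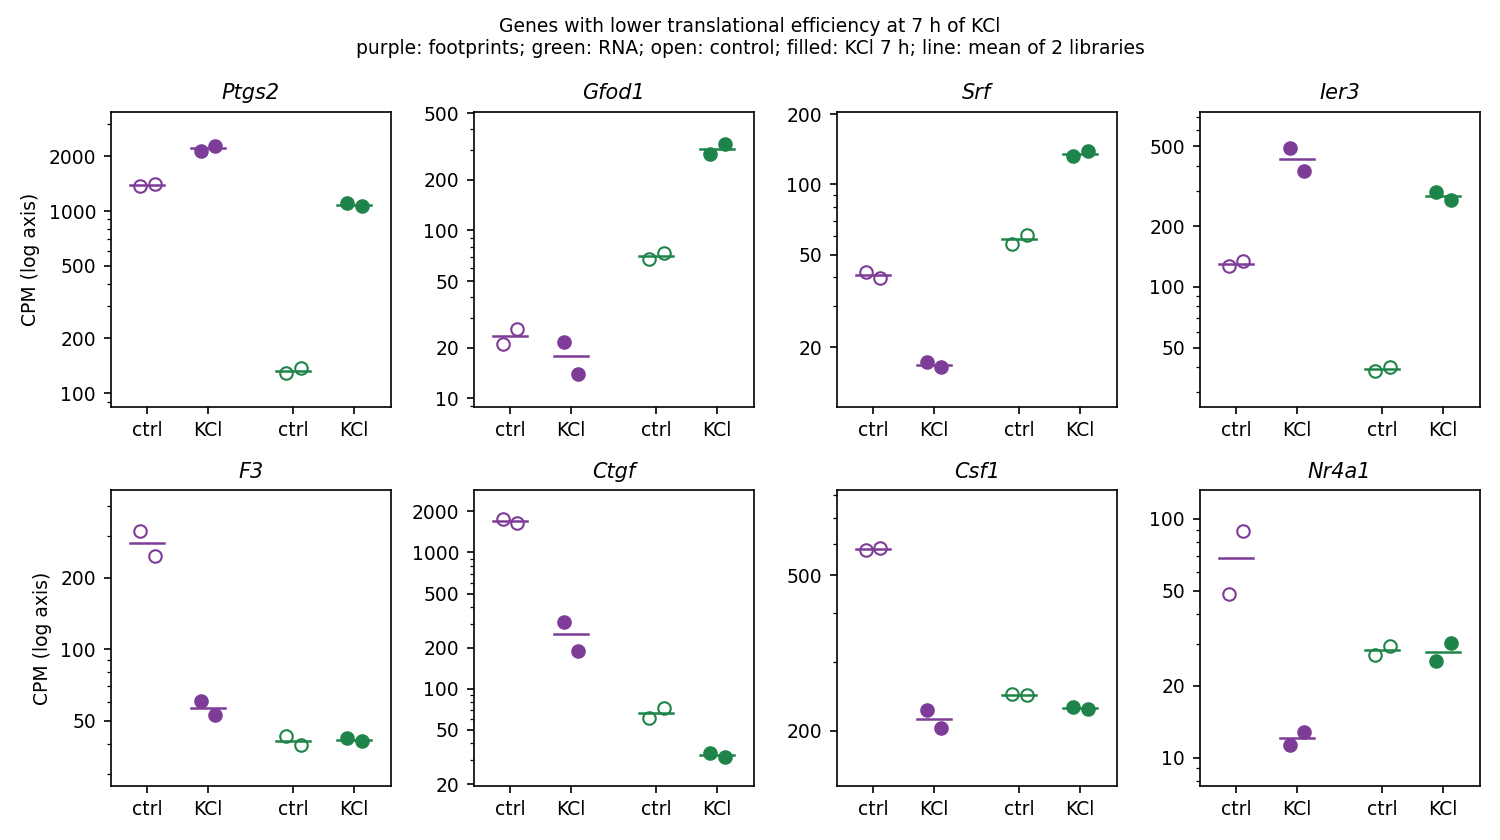
Footprint and RNA levels (vertical axis, CPM after scaling, log axis) of 8 genes with lower efficiency, each point 1 library of the control (open) or of KCl 7 h (filled) and each line the mean of 2 libraries. In Ptgs2, Gfod1 and Ier3 the RNA points of KCl lie well above the control, in Srf the 2 measures move apart, and in F3, Ctgf, Csf1 and Nr4a1 the footprint points of KCl lie below the control.

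Among the genes that passed both tests and had 20 or more control counts in footprints and in RNA, the largest gain was that of Kcnj2, which encodes the inward rectifier potassium channel Kir2.1. Its footprints stood at 3.42 and 1.65 CPM in the control libraries (14 and 6 counts) and at 40.6 and 29.2 CPM under KCl, and its RNA at 26.1 and 24.6 and then 75.1 and 85.7 CPM. All KCl libraries exceeded the controls in both measures, footprints by more, and efficiency changed by 2.10 ± 0.36 (adjusted p = 0.00240), between 1.69 and 2.74 with 1 library left out. Rsrp1, which encodes an arginine- and serine-rich nuclear protein, had footprints of 18.6 and 29.1 CPM in the control and 101 and 117 CPM under KCl, with RNA of 167 and 168 CPM and 267 and 265 CPM, a change of 1.57 ± 0.27 (adjusted p = 0.00249). Clk4, a kinase that phosphorylates splicing factors of the SR family, had footprints of 15.2 and 15.7 CPM and 52.6 and 63 CPM and RNA of 31.4 and 31.8 CPM and 50.2 and 50.9 CPM. Its efficiency changed by 1.27 ± 0.20 (adjusted p = 0.00136), and its groups overlapped in neither measure. Its relative Clk1 was at 0.52 ± 0.32 (adjusted p = 0.378), short of the threshold.

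Other genes gained footprints over RNA that was level or rose less. Tob1, an antiproliferative protein that recruits the deadenylase complex to mRNAs, had footprints of 20.3 and 23.9 CPM in the control and 77 and 77.5 CPM under KCl, RNA of 40.2 and 38.8 CPM and 50.4 and 55.1 CPM, and a change of 1.43 ± 0.19 (adjusted p = 5.46e-04). Pnp, purine nucleoside phosphorylase of the nucleotide salvage pathway, had footprints of 141 and 143 CPM and then 311 and 282 CPM over RNA of 136 and 129 CPM and 139.6 and 145 CPM, and changed by 1.00 ± 0.15 (adjusted p = 0.00111). In both genes every KCl footprint library lay far above the controls and the RNA differed by less. Gains by both tests were also measured for Ankrd10 (1.80 ± 0.30), the interferon-induced Ifit2 (1.34 ± 0.25), the histone deacetylase complex subunit Sap30 (1.38 ± 0.22), the ephrin receptor Ephb3 (1.38 ± 0.28), the adenylate kinase Ak6 (1.28 ± 0.22) and the small GTPase Rras2 (0.97 ± 0.15). The call of Mrgprf, an orphan receptor at 1.47 ± 0.35, was lost in 4 of the 8 fits that left out 1 library, with values of 1.36 to 1.58.

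In a further set of higher genes RNA was lower under KCl, mostly with no footprint change that passed the test. Osr1, a zinc finger transcription factor of the odd-skipped family, had RNA of 65.9 and 70.1 CPM in the control and 23.1 and 21.3 CPM under KCl, and overlapping footprints of 14.7 and 16.5 CPM and 19.5 and 15 CPM. Its efficiency changed by 1.78 ± 0.29 (adjusted p = 0.00199). The peripheral myelin protein gene Pmp22 had RNA of 104 and 92.6 CPM and 41 and 37 CPM and footprints of 57.5 and 69.5 CPM and 51.5 and 51.1 CPM, so that both measures were lower under KCl and RNA more so, a change of 1.06 ± 0.18 (adjusted p = 0.00229). Kitl (stem cell factor), the T-box factor Eomes, the cyclin-dependent kinase inhibitor Cdkn2d and Thap12 gained 2.08 ± 0.41, 1.98 ± 0.29, 1.74 ± 0.28 and 1.50 ± 0.22, each with lower RNA in both KCl libraries than in either control library. Thap12 rests on the sum of 2 rows that carry its older and current symbols, and with the rows as deposited the value was 12.6.

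**Figure D3:**
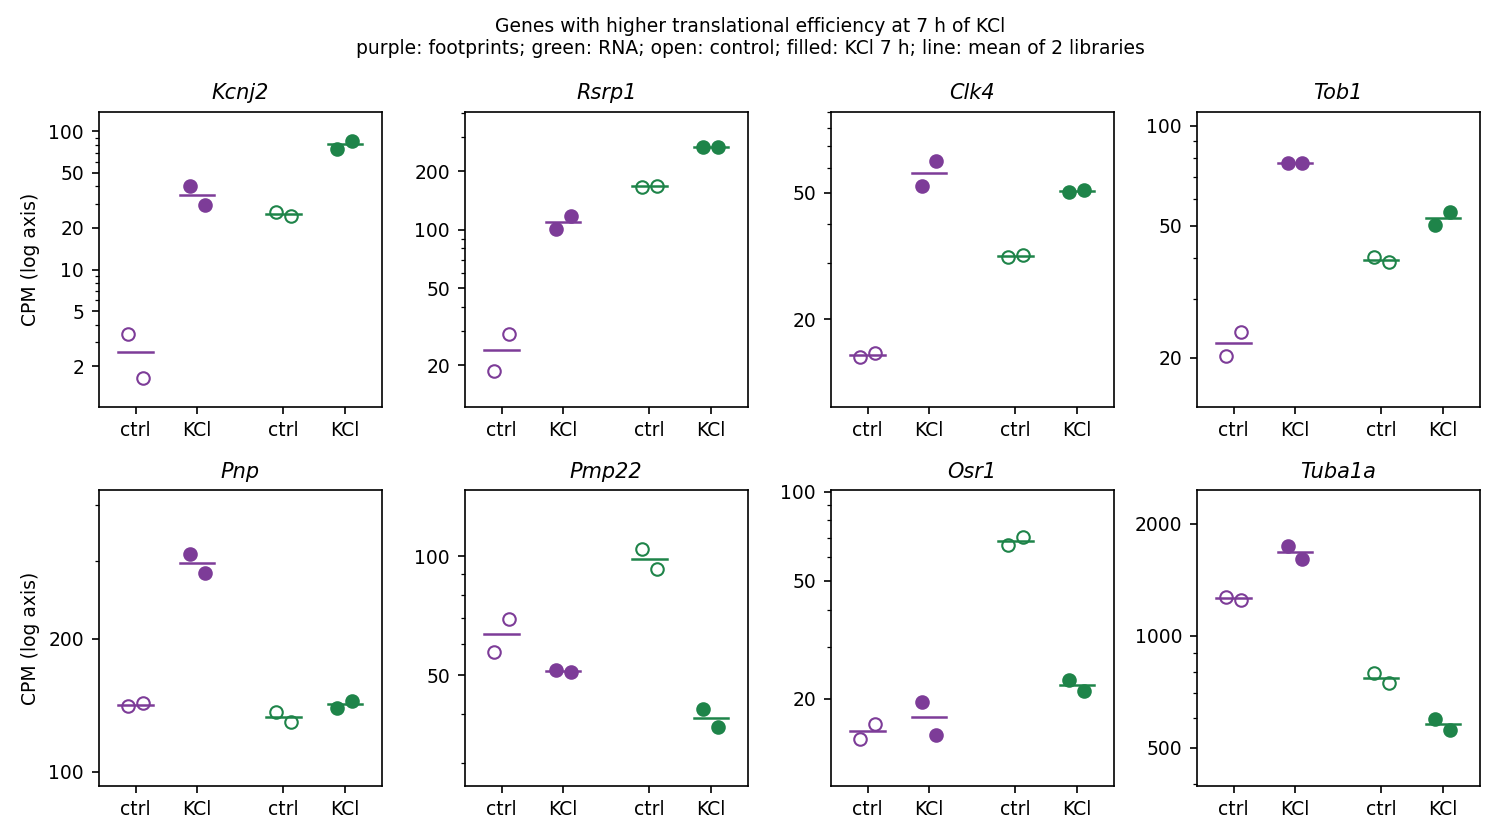
Footprint and RNA levels (vertical axis, CPM after scaling, log axis) of 8 genes with higher efficiency, each point 1 library of the control (open) or of KCl 7 h (filled) and each line the mean of 2 libraries. In Kcnj2, Rsrp1, Clk4, Tob1 and Pnp the footprint points of KCl lie above the control, and in Osr1, Pmp22 and Tuba1a the RNA points of KCl lie below it.

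Immediate early genes, the transcription factor and feedback genes that growth factors induce within minutes, shifted as a group toward lower efficiency. Of 27 tested, 8 fell and 0 rose, against 3.81% of all genes lower, with a median of -0.87 against 0.01 over all genes, and 22 of the 27 lay below 0. By both tests 6 fell, and with DESeq2 12 fell and 0 rose. Nr4a1, Dusp6, Ier3 and the AP-1 subunit gene Fosl2 (-1.01 ± 0.18, adjusted p = 0.00260) were the 4 with the smallest p. In footprints alone 15 of the 27 fell and 3 rose, against 10.1% of all genes lower and 10.8% higher. In RNA 11 fell and 7 rose, against 31.8% of all genes lower and 37.4% higher. The count of lower genes was 3 without the second KCl footprint library and 5 without any 1 of the 4 RNA libraries, and the median stayed between -0.98 and -0.79 in all 20 alternatives.

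Genes of secreted growth factors and cytokines changed in both directions. Of 36 tested, 11 fell and 4 rose, against 3.81% of all genes lower and 1.72% higher. By both tests 8 fell and 1 rose, against 1.45% and 0.631% of all genes. The median was -0.016 and ran from -0.54 to 0.11 with 1 library left out. Pdgfb, Lif, Ctgf and Csf1 were among those that fell, and the chemokine gene Cxcl12 was the one that rose by both tests. Cxcl12 footprints were 32 and 30.8 CPM in the control and 47.7 and 50 CPM under KCl, its RNA was 199.9 and 188 CPM and 139.5 and 151 CPM, and its efficiency changed by 1.09 ± 0.20 (adjusted p = 0.00374). Without the second KCl footprint library the number of lower genes was 4. Of 18 actin cytoskeleton genes and known SRF targets 3 fell and 0 rose, with a median of -0.14. These were Srf itself, the focal adhesion gene Zyx (-0.98 ± 0.25) and the myosin light chain gene Myl9 (-0.98 ± 0.23), of which Zyx and Myl9 lost their calls in 7 and 5 of the 8 fits without 1 library.

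Most genes of the osmotic response rose in RNA and in footprints, and 1 of them changed in efficiency. Of 10 tested, 9 rose and 1 fell in RNA, against 37.4% of all genes higher and 31.8% lower. In footprints 8 rose and 0 fell, against 10.8% of all genes higher and 10.1% lower. The median changes in RNA and in footprints were 1.97 and 2.12 on the log2 scale. The median efficiency change was -0.046, and Sgk1 alone passed the edgeR efficiency test. The gene with lower RNA was Gpd1l, of glycerol phosphate metabolism (-0.49 in RNA), and Gpd1l and Sgk1 were those whose footprints passed no test (-0.55 and -0.22). Akr1b3 RNA stood at 121 and 121 CPM in the control and 2639 and 2650.4 CPM under KCl, and its footprints at 258 and 146 CPM and 3831 and 3855 CPM. Every KCl library was more than 10 times above the controls in both measures, and the efficiency change was -0.17 ± 0.26 (adjusted p = 0.767). The values were 0.17 ± 0.28 for Nfat5, -0.13 ± 0.19 for Slc6a6, 0.61 ± 0.19 for Slc38a2 (adjusted p = 0.0728) and -0.78 ± 0.24 for Slc5a3 (adjusted p = 0.0664). The changes in RNA and in footprints were 2.32 and 1.51 for Slc5a3 and 1.96 and 2.54 for Slc38a2, neither difference past the efficiency threshold. Slc38a2 footprints went from 575 and 648 to 3891 and 3212 CPM and its RNA from 541 and 539 to 2033 and 2166 CPM. Stc1, a secreted glycoprotein gene with the largest RNA rise among those chosen by name, had RNA of 1.51 and 2.15 CPM and 100.4 and 109 CPM and footprints of 5.13 and 0.824 CPM and 88.7 and 72.7 CPM; its efficiency value of -1.13 ± 0.64 turned to 0.76 without the first control footprint library.

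Targets of the integrated stress response, the pathway set off by eIF2 phosphorylation, held 2 genes that lost efficiency. Of 15 tested 2 fell and 0 rose, against 3.81% of all genes lower and 1.72% higher, with a median of -0.023. The 2 were Ifrd1 (-1.11 ± 0.25, adjusted p = 0.0140), a transcriptional coregulator, and Ppp1r15b (-0.96 ± 0.20, adjusted p = 0.00962), the constitutive subunit of an eIF2 phosphatase, which passed both tests and lost the call in 4 and 2 of the 8 fits without 1 library. Atf4, the pathway's main transcription factor, had footprints of 43 and 48.9 CPM and 50 and 34.1 CPM and RNA of 242 and 227 CPM and 333 and 338 CPM, an efficiency change of -0.63 ± 0.24 (adjusted p = 0.135). Ddit3, the death-associated factor CHOP, was at 1.37 ± 0.46 (adjusted p = 0.0889) with 10 and 7 footprint counts in the control libraries, and the inducible phosphatase subunit Ppp1r15a at -0.89 ± 0.51 (adjusted p = 0.336). Of 12 polyamine genes 0 passed the efficiency test (3 higher and 1 lower at an unadjusted p of 0.05, 1 higher with DESeq2, 0 with weighted voom), and the values were -0.65 ± 0.30 for ornithine decarboxylase Odc1, 0.52 ± 0.35 for Amd1, which has near-identical copies, and 0.14 ± 0.24 for the antizyme inhibitor Azin1.

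The ribosomal protein genes lay slightly below the other genes. Of 77 tested 68 were below 0 and the median was -0.32, yet only 2 passed the test, Rps19 (-0.95 ± 0.22, adjusted p = 0.0142) and Rps27 (-2.19 ± 0.48, adjusted p = 0.0117), and 0 rose (13 lower and 0 higher at an unadjusted p of 0.05, 6 and 0 with DESeq2). Over all genes 3.81% were lower and 1.72% higher by edgeR, and the edgeR counts of this and the following lists are to be read against these shares. The unadjusted and DESeq2 counts of every list have a larger background. Of the 10457 genes tested, 2212 had an unadjusted p under 0.05 and DESeq2 called 1072, both directions together. Rps19 lost the call in 5 of the 8 fits without 1 library and with the footprint and RNA library of 1 number as a pair. Rps27 was lost without the second KCl footprint library (-2.02) and was -1.23 without the second control footprint library. Of 15 other TOP messages 1 fell, the growth-related protein gene Tpt1 (-0.69 ± 0.19, adjusted p = 0.0464, lost in all 8 fits without 1 library), and the median was -0.21. The elongation factor genes Eef1a1 and Eef2 were at -0.26 ± 0.17 and -0.29 ± 0.18, the polyA-binding protein gene Pabpc1 at -0.25 ± 0.23 and Rplp0 at -0.39 ± 0.26, none past the threshold. Of 22 tRNA synthetase genes 0 passed the edgeR test (4 higher at an unadjusted p of 0.05, 0 with DESeq2 or weighted voom; median 0.16) and of 47 initiation factor and eIF2 kinase genes 1 fell, Eif2ak4 (-0.75 ± 0.18), which was lost in 7 of the 8 fits without 1 library and with weighted voom (adjusted p = 0.0695). Ribosomal protein genes have many near-identical pseudogenes. The deposited counts may divide these differently for short footprints and for RNA, which was not tested.

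Tubulins and mitotic genes held a few gains. Of 11 tubulin genes 3 rose and 0 fell, all by both tests, with a median of 0.37. Over all genes 1.72% were higher by edgeR and 0.631% by both tests. Tuba1a footprints were 1273 and 1247 CPM in the control and 1744 and 1610.1 CPM under KCl and its RNA 797 and 748 CPM and 598 and 558 CPM, a change of 0.86 ± 0.18 (adjusted p = 0.00747) in which footprints were higher and RNA lower in each KCl library. The near-identical Tuba1b (1.11 ± 0.29) and Tubb3 (1.48 ± 0.36) each lost the call in 6 of the 8 fits without 1 library. Of 21 mitotic genes 3 rose and 0 fell, Plk1 (0.83 ± 0.24), Aurkb (0.69 ± 0.20) and the cyclin gene Ccnb1 (0.59 ± 0.16), lost in 6, 7 and 7 of those fits. Plk1 and Ccnb1 passed both tests and Aurkb the edgeR test only. Of 36 splicing factor genes Clk4 alone passed the test, and the SR protein gene Srsf2 was at 0.0088 ± 0.46.

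Replication-dependent histone genes had the lowest median of the lists, -1.16 over 23 genes tested, with 3 lower and 0 higher. Over all genes 3.81% were lower and 1.72% higher. The mRNAs of these histone genes end in a stem-loop and carry no polyA tail, so polyA-selected RNA holds little of them, and several have near-identical copies. The RNA of Hist1h2br was 0.248 and 0.183 CPM in the control and 2.39 and 2.30 CPM under KCl, the same deposited counts as for Hist1h2bq, while its footprints, 1737 and 2294 CPM and 1778 and 1263 CPM, overlapped between the groups. The efficiency changes of Hist1h2br (-3.75 ± 0.45), Hist1h2bq (-4.21 ± 1.14) and Hist3h2a (-1.78 ± 0.49) are therefore uncertain, and the part of the RNA selection in them was not tested. Hist1h2bq and Hist3h2a lost the call in 5 and 7 of the 8 fits without 1 library. Of 278 zinc finger genes 4 rose and 9 fell (median -0.043), no more than the 1.72% higher and 3.81% lower over all genes. The 9 were led by Zfp106, Zfp169, Zfp469 and Zfp597 at -1.30, -2.27, -2.02 and -2.18, and only 3 of the 9 passed both tests.

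In 7 further groups no gene passed the edgeR test. Of 77 subunits of the respiratory chain, 36 of the proteasome, 34 collagens, 19 chaperones of the endoplasmic reticulum, 16 genes of ion and water transport, 13 genes encoded by mitochondrial DNA and 8 genes with iron-responsive control, 0 passed the edgeR test in either direction, with medians of 0.20, 0.26, -0.048, 0.18, -0.051, 0.19 and 0.084 in that order. At an unadjusted p of 0.05, 12 respiratory chain genes and 8 proteasome genes were higher and 0 lower, and 5 collagens were lower and 2 higher. These counts and those of DESeq2 are to be read against the totals of all 10457 genes. In both directions together, 2212 of those had an unadjusted p under 0.05, and DESeq2 called 1072. DESeq2 called 6 respiratory chain and 5 proteasome genes higher and 3 collagens lower, and weighted voom 0 in these 3 groups. In the other 4 groups the unadjusted numbers were 2 higher among chaperones of the endoplasmic reticulum, 1 higher and 3 lower in ion and water transport, 0 in mitochondrial DNA and 2 higher with iron-responsive control. DESeq2 called 1 higher chaperone of the endoplasmic reticulum and 1 higher and 2 lower transport genes, and weighted voom 1 higher gene with iron-responsive control. Of 78 mitochondrial ribosome genes 1 fell, Mrpl24 (-1.30 ± 0.23), of 21 cytosolic chaperones 1, Cryab (-0.69 ± 0.19), of 14 amino acid transporters 1, Slc43a2 (-1.89 ± 0.53), and of 18 selenoproteins 1, Selk (-0.76 ± 0.21). Over all genes 3.81% were lower, and a single call does not set any of these lists apart. Cryab, Slc43a2 and Selk passed the edgeR test only: weighted voom gave adjusted p of 0.102, 0.215 and 0.0795, and the calls were lost in 6, 7 and 7 of the 8 fits without 1 library. The iron storage gene Fth1 was at 0.86 ± 0.31 (adjusted p = 0.109 by edgeR, 0.0480 by weighted voom). Long noncoding RNAs such as Neat1 have no row in the footprint tables and no efficiency.

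**Figure D4:**
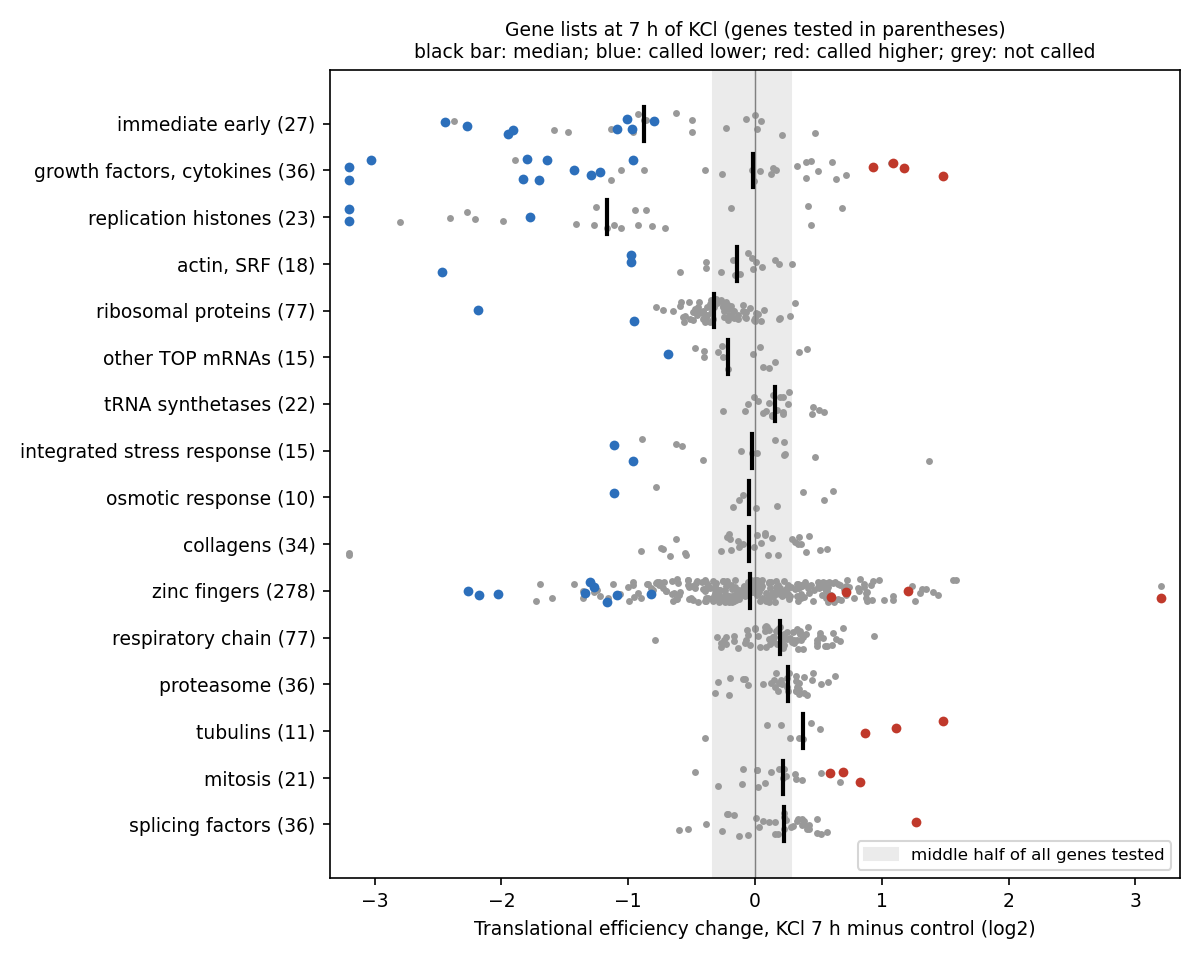
Efficiency change (horizontal axis, log2, KCl 7 h against control) of each tested gene in 16 gene lists, each point 1 gene, with the list's median as a bar and genes that changed by the edgeR test coloured by direction; the grey band spans the quartiles of all genes tested, and 8 genes beyond 3.2 in size are drawn at the edge. Immediate early genes and replication histones have medians of -0.87 and -1.16, and the medians of the other lists shown lie between -0.32 (ribosomal proteins) and 0.37 (tubulins).

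Genes that gained a read-in call under KCl, the authors' mark for transcription arriving from the upstream neighbour, were tested because that is the subject of the series. The call had to be present in both KCl 7 h RNA libraries and in no control RNA library, which 20 genes met. Of the 14 that could be tested 1 fell and 0 rose, against 3.81% of all genes lower and 1.72% higher, with a median of -0.18. The gene was Faap100, a subunit of the Fanconi anaemia core complex of DNA repair. Its footprints stood at 14.4 and 15.4 CPM in the control and 0.751 and 0.851 CPM under KCl (2 and 3 counts), its RNA at 13.9 and 15.7 CPM and 6.89 and 8.43 CPM, with no overlap in either, and its efficiency changed by -3.20 ± 0.55 (adjusted p = 0.00249). Of 14 genes with the call in both the control and the KCl libraries 0 passed the test by edgeR, DESeq2 or weighted voom (1 higher and 2 lower at an unadjusted p of 0.05), with a median of 0.087.

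The 7 h response was then set directly against that at 2 h of KCl, without the control libraries. Efficiency differed between the times at 722 of 10457 genes (6.90%), with 418 higher at 7 h (4.0%) and 304 lower (2.91%). The balance of directions depended on the setting, with 355 higher and 352 lower with DESeq2 size factors, 279 and 301 with no filter and 199 and 279 with only the compared groups. The losses of Ptgs2, Srf and Ctgf against the shared control were already of like size at 2 h, at -2.26, -2.29 and -1.91, and the direct differences were -0.055 ± 0.27, -0.17 ± 0.26 and 0.21 ± 0.24 with adjusted p of 0.935, 0.744 and 0.641. Other genes moved between the times. Gfod1 was at -3.77 at 2 h and higher by 1.26 ± 0.31 at 7 h (adjusted p = 0.0225), Nr4a1 at -0.57 and lower by 1.87 ± 0.34 (adjusted p = 0.00399), and Csf1 at -0.60 and lower by 0.70 ± 0.18 (adjusted p = 0.0254). By weighted voom the differences of Nr4a1 and Csf1 passed (adjusted p = 0.0219 and 0.0227) and that of Gfod1 did not (adjusted p = 0.146). Odc1 and Pabpc1, at -2.07 and -1.79 at 2 h, were higher at 7 h by 1.42 ± 0.31 and 1.54 ± 0.23 (adjusted p = 0.0129 and 0.00129). Slc5a3 was higher by 1.16 ± 0.24, Nfat5 by 1.05 ± 0.28 and Slc38a2 by 0.75 ± 0.19 (adjusted p = 0.00922, 0.0319 and 0.0273), and these were the 3 of the 10 osmotic genes that changed between the times. The number of genes that differed ranged from 270 to 838 with 1 library left out, the lowest without the second footprint library of 2 h.

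Against 7 h of H2O2 the KCl cells differed at 1287 of 10457 genes (12.3%), with 472 higher under KCl (4.51%) and 815 lower (7.79%), and the translation machinery stood out among the lists. Of 77 ribosomal protein genes 43 were higher under KCl than under H2O2 and 0 lower, with a median difference of 0.76 against -0.088 over all genes. The same held for 13 of the 15 other TOP messages (median 0.80) and 14 of the 22 tRNA synthetases (median 0.78), with 0 lower in either list. Against the control that both stresses share, the ribosomal protein median was -0.32 under KCl and -1.07 under H2O2, and -0.03 at 2 h of KCl. Pabpc1, Rplp0, Tpt1, Eef1a1 and Eef2 were higher under KCl than under H2O2 by 1.38, 1.19, 0.94, 0.79 and 0.72 (adjusted p = 0.00131, 0.00644, 0.00519, 0.00741 and 0.0160).

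Zinc finger and collagen genes lay on the other side of that comparison. Of 278 zinc finger genes 31 were lower under KCl than under H2O2 and 0 higher (median -0.39), and of 34 collagens 11 were lower and 0 higher (median -0.62). Over all genes 7.79% were lower and 4.51% higher, with a median of -0.088. Against the control that both stresses share, the zinc finger median was -0.043 under KCl and 0.35 under H2O2. The collagen medians were -0.048 and 0.53 in the same order. Of 27 immediate early genes 2 were higher and 3 lower, with a median of -0.048. Srf and F3 were lower under KCl by 1.13 ± 0.24 and 1.15 ± 0.32 (adjusted p = 0.00620 and 0.0265), whereas the differences of Ptgs2 (0.09 ± 0.27), Ctgf (0.16 ± 0.24) and Csf1 (-0.11 ± 0.18) did not pass the test. Clk4 and Fth1 were higher under KCl by 1.04 ± 0.20 and 1.86 ± 0.31 (adjusted p = 0.00309 and 0.00119). The number of genes that differed ranged from 540 to 1244 with 1 library left out, the lowest without the second KCl footprint library.

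**Figure D5:**
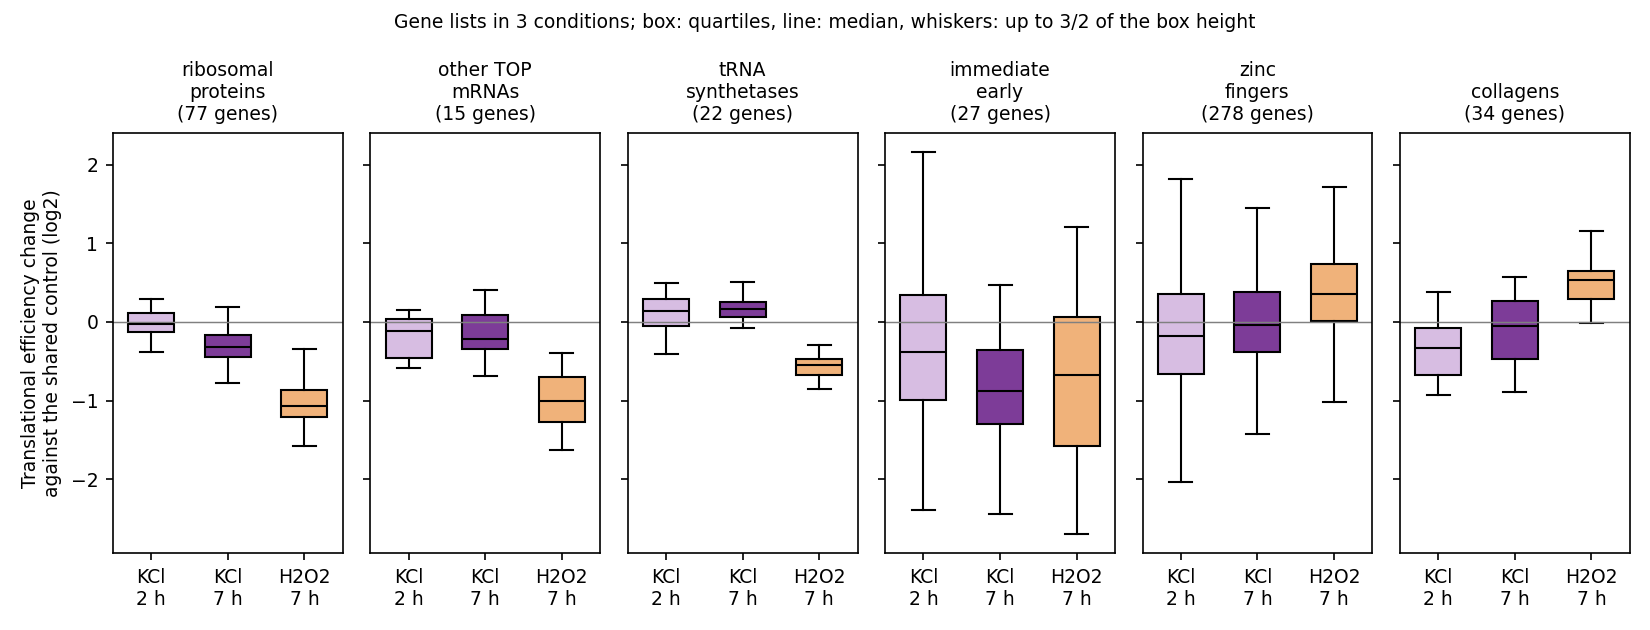
Efficiency change against the shared control (vertical axis, log2) of the genes in 6 lists at KCl 2 h, KCl 7 h and H2O2 7 h, drawn as a box from the lower to the upper quartile with the median as a line and whiskers over the genes near the box. The ribosomal protein medians are -0.03, -0.32 and -1.07 in that order, and since the 3 conditions share their control libraries the columns are not independent.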

How the data were processed

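PolyA RNA and ribosome footprints of NIH3T3 cells were compared over 20 libraries of the H2O2 and KCl experiment (10 footprint, 10 RNA, 10 groups of 2). The authors deposited expected counts per gene, all whole numbers, and TPM values of the same libraries; the submitters' processing notes name STAR, RSEM, Bowtie and build mm10, with no versions or roles. Per the labels' protocols, a commercial kit gave the RNA libraries, and footprints were prepared by an earlier method of the group. The tables held 20430 RNA and 19941 footprint symbols, and 101 second symbols of a gene were summed into its first. The footprint tables hold 12 more columns, left out because no sample's labels match their names.

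Expected counts were used without rounding in edgeR 4.0.16 (R 4.3.3): quasi-likelihood interaction over the 20 libraries, which share 1 estimate of the spread, TMM factors within each kind of library, filterByExpr in both kinds, and Benjamini-Hochberg adjustment across the genes of a fit, at a threshold of 0.05. Standard errors come from the fitted change and its F statistic. Weighted voom of limma 3.58.1 was the second test. Members and lists were chosen with earlier results of these data known. Named were, of the genes with 20 or more control counts in footprints and in RNA that passed both tests, the 14 largest changes and the 5 smallest p in each direction; up to 4 called genes of each list; for each direct difference, the 4 largest in each direction that were called for it and for efficiency at KCl 7 h; and 22 genes fixed by name. Alternatives were DESeq2 1.42.0, other filters and normalizations, limma on log2(TPM + 1), replicate blocks and leaving out libraries.

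Simulated counts of 10355 genes, 198 of them changed, tested the efficiency comparison: edgeR recovered 6.06% of 1.5-fold, 41.8% of 2-fold and 89.2% of 4-fold changes, with 15.1% false calls. The calls of edgeR alone are to be read with that share in mind. The share depends on how many genes change and by how much, so it may differ among the real calls. In the control and KCl 7 h groups, replicate libraries differed by more than sampling noise, with a chi-square of 5.98 to 11.7 per gene. None of these libraries was therefore a copy of its replicate, but this value cannot show that they came from separate cultures. The labels' replicate numbers were not taken as pairs. Transcript and UTR sequences were not used here.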

Additional observations from a re-analysis of the deposited data

Results flagged for a closer look

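Genes named here differed in efficiency between KCl 7 h and another stressed group in the direct test of that difference, and were the largest in each direction among those that also changed in efficiency at KCl 7 h by edgeR and had 20 or more control counts in footprints and in RNA. Against KCl 2 h, Kcnj2, the potassium channel gene, was higher at 7 h by 2.38 (adjusted p = 0.00129). Its footprints stood at 2.35 and 4.17 CPM at 2 h and 40.6 and 29.2 CPM at 7 h, with RNA of 35.2 and 41.7 CPM and 75.1 and 85.7 CPM. Mapk6, which encodes the atypical kinase ERK3, was higher by 2.08 (adjusted p = 0.00393), with footprints of 12.8 and 14.9 CPM at 2 h and 66.9 and 27 CPM at 7 h, and the difference was 1.31 without the first footprint library of 7 h. Against control Mapk6 stood at -3.93 at 2 h and was still called lower at 7 h, at -1.85. Fam193b was higher by 1.85 (adjusted p = 0.0216) and at 1.21 without the second footprint library of 7 h, and the call was lost in 3 of 8 fits that left out 1 library. Ccni, a cyclin-like gene, was higher by 4.70 (adjusted p = 0.0188), with 0 and 1 footprint counts at 2 h and 17 and 15 at 7 h. Its value ran from 3.71 to 9.40 with 1 library left out and lost the call in 3 of 8 such fits. Against control Ccni stood at -6.21 at 2 h and was still called lower at 7 h, at -1.51. That call at 7 h was lost in 7 of 8 fits without 1 library and with weighted voom (adjusted p = 0.149).

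Lower at 7 h than at 2 h were Faap100 at -3.14 (adjusted p = 0.00560), the pseudouridine synthase gene Trub2 at -2.58 (adjusted p = 0.00134), the kinesin-like Stard9 at -2.47 (adjusted p = 0.00957) and the antiproliferative gene Btg2 at -2.43 (adjusted p = 0.0395). Weighted voom gave adjusted p of 0.0345, 0.00933, 0.121 and 0.105 in that order, so Stard9 and Btg2 passed by edgeR only. Faap100 footprints were 6.71 and 9.73 CPM at 2 h and 0.751 and 0.851 CPM at 7 h. The Btg2 call for this difference was lost in all 8 fits that left out 1 library, and that of Stard9 in 1 of 8. Their calls for efficiency at KCl 7 h, which were also needed, were lost in 7 of 8 fits each, and that of Trub2 in 2. Faap100 lost its call at KCl 7 h in 0 of 8. With weighted voom the adjusted p at KCl 7 h was 0.286 for Stard9, 0.175 for Btg2 and 0.0690 for Trub2.

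Against H2O2 7 h, Wsb1, a subunit gene of a ubiquitin ligase, was higher under KCl by 2.35 (adjusted p = 8.69e-05), with footprints of 76.6 and 81.5 CPM under H2O2 and 218 and 253 CPM under KCl. Thap12 was higher by 2.12 (adjusted p = 6.03e-05), Ankrd10 by 1.75 (adjusted p = 0.00119) and the mitochondrial carrier gene Slc25a36 by 1.73 (adjusted p = 8.41e-04). Lower under KCl were Zfp169 at -2.95 (adjusted p = 1.46e-04), Micall1 at -2.86 (adjusted p = 1.06e-04), the ataxin gene Atxn1 at -2.72 (adjusted p = 0.00327) and Faap100 at -2.70 (adjusted p = 0.00741). Micall1 footprints were 52.1 and 75.5 CPM under H2O2 and 3.76 and 2.27 CPM under KCl. The Faap100 call against H2O2 was lost without the second KCl footprint library, and the others of these 8 genes kept theirs against H2O2 in each fit without 1 library. The calls for efficiency at KCl 7 h, which these genes also needed, were less stable in part. They were lost in 6, 5 and 2 of the 8 fits for Slc25a36, Wsb1 and Atxn1, and in 0 for the other genes. Slc25a36 and Atxn1 also missed the call at KCl 7 h with weighted voom.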

How the results depend on the processing

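Efficiency calls at KCl 7 h numbered 578. They were 328 at an absolute log2 change of 1 or more, 1072 with DESeq2, 224 with weighted voom, 255 with limma on log2(TPM + 1), and 231 to 537 with 1 library left out. For the difference from KCl 2 h (722 calls) these numbers were 383, 1229, 310, 434 and 270 to 838, and 478 with only the compared groups; for the difference from H2O2 7 h (1287 calls) they were 625, 1829, 760, 1045 and 540 to 1244. Footprint calls (2196) were 1357 at the larger change and 1016 to 1438 with 1 library left out, and RNA calls (9128) were 2423 and 8302 to 8453. Leaving out the first footprint library of H2O2 2 h, the shallowest of the fit at 1460751 counts and chosen after seeing the data, gave 846, 1097 and 1695 efficiency calls in the same order, and 10 rather than 8 lower immediate early genes. The causes of these shifts were not tested, beyond the fewer samples or the stricter change that each setting brings.

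The deviations of same-numbered footprint libraries correlated at r = 0.19 to 0.44 among the control, KCl 2 h, KCl 7 h and H2O2 7 h, and at -0.41 to -0.044 between these and H2O2 2 h. For RNA of 2 conditions r was -0.17 to 0.34, and between footprints and RNA of 1 condition -0.22 to 0.12, so the numbers were not taken as pairs over the whole fit. With a replicate block for the number, efficiency calls were 659, differences from KCl 2 h 805, differences from H2O2 7 h 1390, footprint calls 2273 and RNA calls 9207. With the footprint and RNA library of 1 number as a pair in a replicate block, the 3 efficiency counts were 181, 199 and 492. DESeq2 size factors moved the higher and lower calls against KCl 2 h from 418 and 304 to 355 and 352, and the compared groups alone to 199 and 279. Limma on log2(TPM + 1) turned the RNA calls from 4932 higher and 4196 lower to 4034 and 4821, and moved the median difference from H2O2 7 h from -0.088 to -0.18.

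Of the values of single genes under the alternatives, 1969 kept their direction and side of the threshold, 249 lost the call, 11 gained one and 11 turned sign, none of these last a call. With 1 library left out Srsf2 ranged from -0.42 to 0.61 (-0.21 without the second KCl footprint library, -0.029 without the second control RNA library, -0.0041 without the first KCl RNA library), and it was -0.027 with no filter. The ranges were -0.52 to 0.29 for Akr1b3, -1.86 to 0.76 for Stc1, -0.12 to 0.34 for Azin1 (-0.018 without the second control footprint library), -0.052 to 0.36 for Nfat5 and -0.13 to 0.94 for Amd1. Among list medians 537 moved by less than the spread between replicates, 57 by more and 4, from 3 lists with a main median beyond that spread, turned sign: selenoproteins, to -0.0795 with no filter, fibroblast markers, -0.0205 to 0.47 with 1 library left out (the lowest without the first KCl footprint library, and -0.019 without the second control one), and markers of other cell types, -0.24 to 1.32. A further 37 values turned sign in 12 of the 14 lists whose main median lay within the spread, among them growth factors, the integrated stress response, osmotic genes, collagens and zinc fingers, so their medians have no settled direction.

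The median standard error was 0.26 on the log2 scale, and 2212 genes had an unadjusted p under 0.05 against 578 after adjustment; the part of footprint depth in this was not tested.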

Other observations

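The genes described here were picked one by one from those that lost efficiency by the edgeR test, after their values were seen. Their values are a description, and no list of their pathways was counted. Ereg and Hbegf, which encode ligands of the EGF receptor, changed by -1.80 ± 0.35 and -1.83 ± 0.37, the receptor inhibitor gene Errfi1 by -1.68 ± 0.34 and the ERK phosphatase gene Dusp5 by -1.91 ± 0.39 (adjusted p = 0.00557, 0.00745, 0.00728 and 0.00791). Hbegf RNA stood at 55.7 and 57 CPM in the control and 32.4 and 35.6 CPM under KCl, and its footprints at 169 and 173 CPM and 36.8 and 20.7 CPM. Errfi1 RNA was 126 and 132 CPM and 65.8 and 67.2 CPM, and its footprints 331 and 249 CPM and 52.6 and 38.9 CPM.

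The NF-kB subunit gene Relb changed by -1.83 ± 0.29, the deubiquitinase gene Tnfaip3 by -1.63 ± 0.32, and the adaptor genes Traf1 and Traf3 by -1.58 ± 0.29 and -1.95 ± 0.37 (adjusted p = 0.00136, 0.00657, 0.00392 and 0.00527). Rc3h1 and Rc3h2, which encode the Roquin proteins that bind stem-loops of inflammatory mRNAs and promote their decay, changed by -1.66 ± 0.29 and -2.08 ± 0.32 (adjusted p = 0.00298 and 0.00113). Rc3h1 RNA was 33.2 and 37.6 CPM in the control and 135 and 143 CPM under KCl, with footprints of 38.4 and 40.7 CPM and 65 and 32.9 CPM. Cyr61, a matrix protein related to Ctgf, changed by -1.22 ± 0.23, and the angiogenic factor gene Vegfa by -1.43 ± 0.36 (adjusted p = 0.00469 and 0.0274).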
